A study of Mus musculus with 8 samples.

Results

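The prostaglandin, leukotriene and lipoxygenase genes considered here were 10 genes of 54146 in the gene-level counts: *Alox5*, *Alox5ap*, *Lta4h* and *Ltc4s* of leukotriene synthesis, *Alox15*, the cyclooxygenases *Ptgs1* and *Ptgs2*, the prostaglandin synthases *Ptges* and *Hpgds*, and the prostaglandin E2 receptor *Ptger4*. They were chosen by name, through the Ensembl identifiers of the deposited annotation, and all 10 were found. The libraries came from macrophages of epididymal white adipose tissue (eWAT) of 4 male C57Bl6 mice that ate a high-fat diet (with added cholesterol, by the study's methods) without limit for 24 weeks and then underwent short-term caloric restriction (stCR), with food reduced by 30%, for 2 weeks. From each mouse, cells positive for CD45 and CD11b and negative for CD3, B220, Ly6G and SiglecF were sorted into 1 FCGR4+ and 1 FCGR4- library, so that 4 pairs of libraries were compared. FCGR4 is a receptor for the constant part of IgG. The gate holds no macrophage marker beside CD11b, which other myeloid cells and some NK cells also carry. The labels give no age. Every mouse had undergone stCR, so the libraries compare populations within restricted mice and not restriction with feeding. P values measure the spread over these 4 mice.

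Eicosanoids are signaling lipids made from arachidonic acid, a fatty acid that phospholipases free from membranes. In one branch, the cyclooxygenases PTGS1 (the constitutive form) and PTGS2 (the form induced by inflammatory signals) make prostaglandin H2, which dedicated synthases turn into prostaglandin E2, prostaglandin D2, thromboxane or prostacyclin. In the other, 5-lipoxygenase (ALOX5) and its membrane partner FLAP (the product of *Alox5ap*) make leukotriene A4, from which LTA4H makes leukotriene B4, an attractant of neutrophils, and LTC4S makes the cysteinyl leukotrienes. ALOX15 oxygenates arachidonic and linoleic acid at other positions and takes part in the synthesis of lipoxins, which are linked to the resolution of inflammation. Macrophages make many of these lipids, and mast cells, eosinophils and neutrophils are further known sources.

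Each library held from 35992794 to 66856746 counts. A signal of 3 counts, the least taken as present, was worth between 0.0440 and 0.0883 CPM, here each count divided by its library's size after edgeR's TMM scaling. *Fcgr4*, the sort marker, was higher in the FCGR4+ library of 4 of 4 mice (log2 fold change 1.61 ± 0.17 SE, edgeR adjusted P = 0.0162), as the sort sets. The summed level of 11 macrophage markers was 28060 to 52580 CPM in FCGR4+ and 23230 to 47240 CPM in FCGR4- libraries, with *Lyz2* the most abundant. The sum was higher in the FCGR4+ library of every mouse (3 of 4 when scaled by library size alone), the median log2 fold change of the markers was 0.43, and 0 of 11 passed the threshold. For 5 of 14 marker lists, all of other cell types, every mouse had the lower sum in its FCGR4+ library. For mast cells and basophils, 12 of 14 tested markers passed the threshold downward, and their sum was 15.2 to 31.8 against 403 to 2242 CPM (most abundant *Tpsb2*). For T and NK cells it was 8 of 9, with 4.59 to 13.9 against 20.4 to 74.3 CPM (*Nkg7*). For dendritic cells it was 5 of 11, with 17.2 to 24.5 against 55.9 to 127 CPM (*Cd209a*). For neutrophils it was 6 of 10, with 126 to 557 against 400 to 2478 CPM (*S100a8*), and for fibroblasts 7 of 11, with 155 to 298 against 394.9 to 1601 CPM (*Col3a1*). The gate was set against T cells by CD3, neutrophils by Ly6G, eosinophils by SiglecF and fibroblasts by CD45, and it named no marker of mast cells or dendritic cells. In such bulk libraries, fewer cells of a type and less RNA per cell cannot be told apart.

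Per kilobase of transcript, *Alox5ap* had the highest level of the 10 genes in each of 8 libraries, between 132 and 261 CPM per kilobase, above the whole range of *Hpgds*, the next gene, at 14.1 to 57.0. Below *Hpgds*, the order by the mean of all 8 libraries was *Ltc4s*, *Ptgs2*, *Ptger4*, *Lta4h*, *Ptges*, *Alox5*, *Ptgs1* and *Alox15*, and the ranges of each pair of neighbors overlapped. The order differed between libraries, and *Ptgs2* exceeded *Ptger4*, and *Ptges* exceeded *Alox5*, in 3 of 8 libraries each. By the mean of FCGR4+ libraries alone, *Ptgs2* (6.01 CPM per kilobase) lay below *Ptger4* (10.5) and *Lta4h* (7.30), and *Ptges* (1.88) below *Ptgs1* (4.69) and *Alox5* (3.87), whereas by the mean of FCGR4- libraries *Ptges* (9.70) lay above *Ptger4* (8.93) and *Lta4h* (8.003). *Lta4h* was the steadiest, between 6.61 and 9.46 CPM per kilobase, while *Ptgs2* spanned 1.58 to 40.3 and *Ptges* 0.744 to 23.6. In the FCGR4- libraries the highest value of *Ptgs2* was 25.5 times the lowest, and that of *Ptges* 23.1 times, against 1.12 times for *Alox5*. *Alox15* was the lowest by mean through its FCGR4+ libraries (1.26 CPM per kilobase, with 0 counts in 1 library), while its FCGR4- mean (5.82) exceeded that of *Ptgs1* (3.66).

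**Figure D1:**
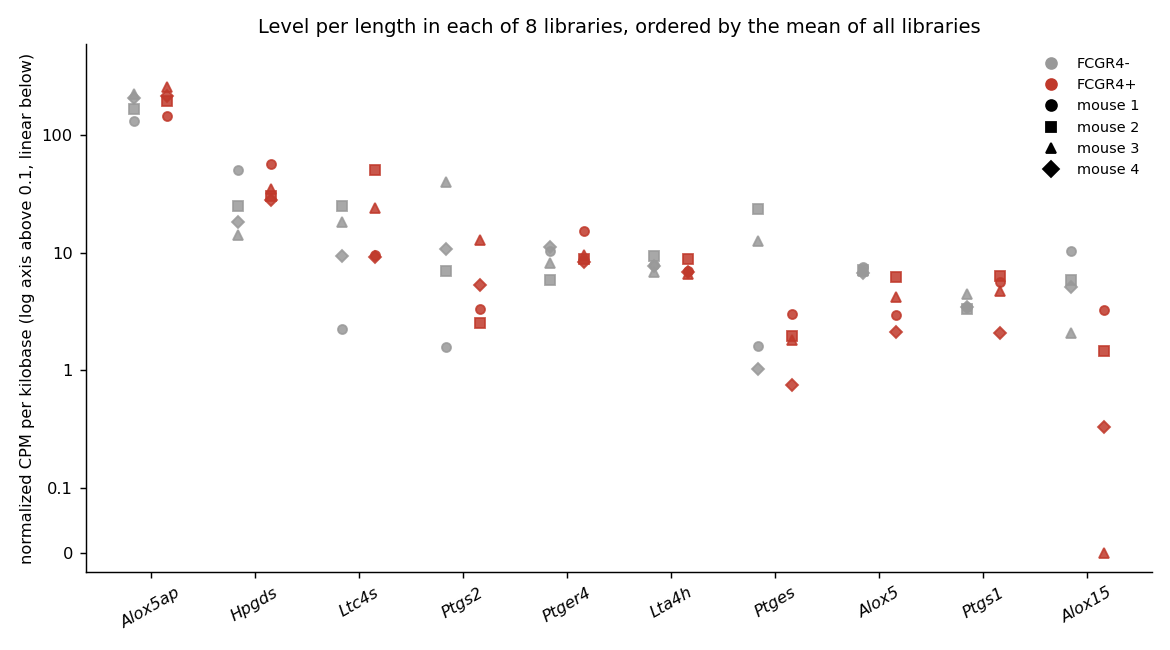
Normalized CPM per kilobase of transcript (log axis above 0.1, linear below) of the 10 genes in 8 libraries, gray for FCGR4- and red for FCGR4+, with 1 symbol per mouse. *Alox5ap* lies between 132 and 261 and above every value of *Hpgds* (14.1 to 57.0), whereas *Ptgs2* and *Ptges* spread widely among FCGR4- libraries.

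None of the 10 genes passed the threshold between the populations, an adjusted P value under 0.1 by edgeR's paired quasi-likelihood test. Their adjusted P values lay between 0.214 and 0.758, and 1.27% of the 17095 tested genes passed. At an unadjusted P value under 0.05 there were 4 of 10 genes, *Alox5*, *Alox15*, *Ltc4s* and *Hpgds*, beside 9.77% of all tested genes. In the fit, 5 were higher and 5 lower in FCGR4+ cells, with a median log2 fold change of 0.02 against -0.003 over all tested genes. *Alox5ap* and *Hpgds* were higher in 4 of 4 mice and *Alox5*, *Alox15* and *Lta4h* lower in 4 of 4, which makes 5 of 10 genes with the same direction in every mouse beside 18.8% of all tested genes. *Alox5* was the 1 gene whose populations did not overlap, and 3.02% of all tested genes were lower without overlap.

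Calls on these genes depended on the method. The study itself compared the populations by DESeq2, with mouse and population in the model. Run here on the same pairs, DESeq2 called *Alox5* (adjusted P = 0.00797) and *Hpgds* (0.0920), 2 of 10 genes, and 5.99% of all tested genes. The newer quasi-likelihood method of edgeR called *Alox15* (adjusted P = 0.0385) and *Alox5* (0.0993), where 3.68% of all genes passed. Without a filter on low counts, 6 of 10 passed, downward *Alox5*, *Alox15*, *Ptgs2* and *Ptges* and upward *Hpgds* and *Ltc4s*, where 2.77% of all genes passed. Over all alternatives, the adjusted P value of *Alox5* ran from 0.00364 to 0.663, that of *Alox15* from 5.57e-07 to 0.898, that of *Hpgds* from 0.0622 to 0.999, that of *Ltc4s* from 0.0341 to 0.931, that of *Ptgs2* from 0.0645 to 1.00, and that of *Ptges* from 0.0133 to 1.00.

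**Figure D2:**
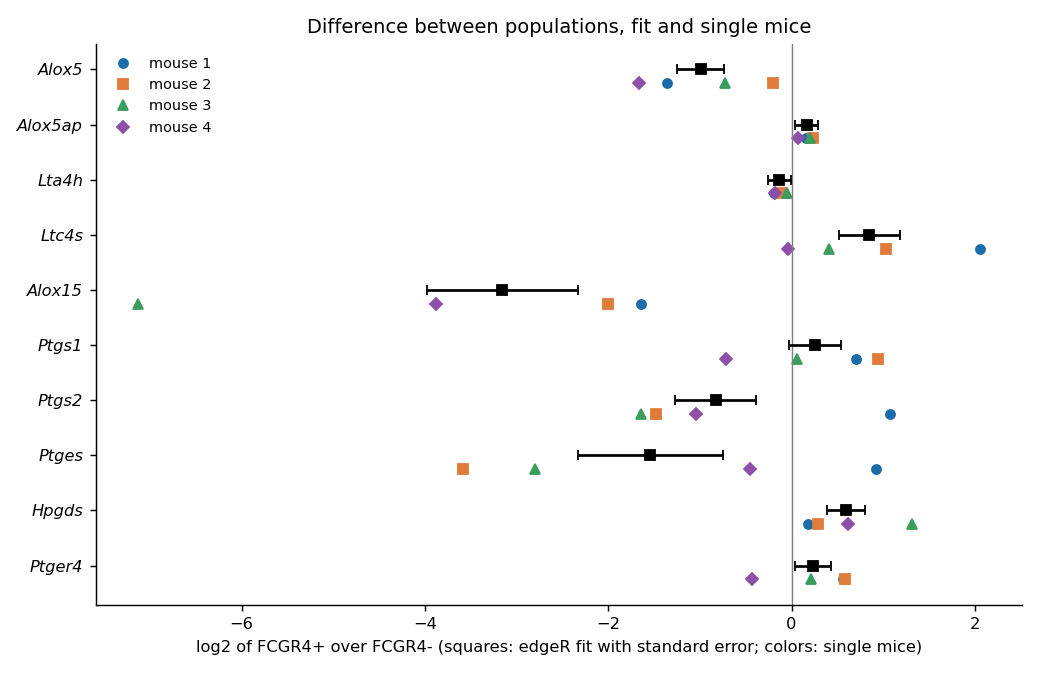
Log2 ratio of FCGR4+ over FCGR4- level for the 10 genes: black squares give edgeR's fitted log2 fold change with its standard error, and colored symbols the ratio in each of 4 mice (log2 CPM with a prior count of 2). *Alox5* and *Alox15* lie below 0 in every mouse and *Hpgds* above 0, whereas mouse 1 lies on the other side of 0 from the rest for *Ptgs2* and *Ptges*. The far point of *Alox15* in mouse 3 has 0 counts in the FCGR4+ library, so its place depends on the prior count.

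The sequence upstream of the RefSeq start is given for 4 genes: *Alox5* and *Hpgds*, which differed in opposite directions in every mouse, and *Ptgs2* and *Ptges*, the inducible pair whose levels spread most among FCGR4- libraries. The sequences are the 250 bases before the RefSeq start on GRCm38.p6, 5′ to 3′ on the strand of the gene, at chr6:116461179-116461428 (minus strand) for *Alox5*, chr6:65144731-65144980 (minus) for *Hpgds*, chr1:150099781-150100030 (plus) for *Ptgs2* and chr2:30903298-30903547 (minus) for *Ptges*. RefSeq and the deposited annotation place some starts differently: the *Ptges* window lies inside the deposited span of that gene, given below, and the *Hpgds* window overlaps the start of the deposited *Hpgds* span. Capitals mark matches on either strand to 3 motifs: the GC box GGGCGG, the core GAGGAA of sites of PU.1 (a transcription factor of myeloid cells), read as TTCCTC on the other strand, and the TATA box TATAAA.
Alox5: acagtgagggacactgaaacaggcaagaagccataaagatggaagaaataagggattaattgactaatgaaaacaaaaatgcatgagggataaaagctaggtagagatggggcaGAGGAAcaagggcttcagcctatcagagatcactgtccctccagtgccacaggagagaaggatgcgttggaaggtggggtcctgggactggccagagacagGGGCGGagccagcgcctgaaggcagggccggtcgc
Hpgds: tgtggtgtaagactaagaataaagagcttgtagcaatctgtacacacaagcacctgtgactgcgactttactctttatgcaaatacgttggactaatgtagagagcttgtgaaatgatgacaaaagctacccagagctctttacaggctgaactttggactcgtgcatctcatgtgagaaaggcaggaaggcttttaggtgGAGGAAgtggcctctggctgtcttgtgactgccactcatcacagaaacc
Ptgs2: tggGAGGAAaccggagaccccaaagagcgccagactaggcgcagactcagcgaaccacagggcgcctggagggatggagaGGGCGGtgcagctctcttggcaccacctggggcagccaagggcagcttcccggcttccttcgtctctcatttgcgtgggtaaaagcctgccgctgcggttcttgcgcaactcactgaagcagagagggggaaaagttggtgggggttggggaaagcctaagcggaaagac
Ptges: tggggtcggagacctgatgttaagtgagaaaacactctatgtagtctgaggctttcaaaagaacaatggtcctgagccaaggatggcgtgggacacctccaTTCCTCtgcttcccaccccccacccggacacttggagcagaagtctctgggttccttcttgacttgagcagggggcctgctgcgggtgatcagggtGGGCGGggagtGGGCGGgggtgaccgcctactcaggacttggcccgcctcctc
A GAGGAA core lay at -136 to -131 in *Alox5*, at -49 to -44 in *Hpgds*, at -247 to -242 in *Ptgs2* and, on the other strand, at -149 to -144 in *Ptges*, where -1 is the base before the start. The GC box was matched at -35 to -30 in *Alox5*, at -170 to -165 in *Ptgs2*, and at -53 to -48 and -42 to -37 in *Ptges*, and the *Hpgds* window held none. None of the 4 windows held TATAAA. Of the windows not printed, those of *Lta4h* and *Ptgs1* also held the GAGGAA core, and those of *Ltc4s* and *Ptger4* did not. Among 32851 RefSeq promoter windows of the same length, 23.3% held the GAGGAA core, 32.7% the GC box and 12.4% the TATA box. Matches are a description of letters and not of bound sites.

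*Alox5* (chr6:116410077-116461178, minus strand, mm10), which encodes 5-lipoxygenase, the enzyme that opens the leukotriene branch, was lower in the FCGR4+ library of every mouse, short of the threshold. Its level was 12.1, 25.6, 17.2 and 8.74 CPM in the FCGR4+ libraries of mice 1 to 4, against 31.1, 29.5, 28.4 and 27.7 CPM in their FCGR4- libraries. The FCGR4- libraries lay close together, and the highest FCGR4+ library, of mouse 2, remained below all of them. Its log2 fold change was -0.99 ± 0.26 SE (adjusted P = 0.214). The marker sums of T and NK cells, dendritic cells, mast cells and basophils, and fibroblasts, given above, separated the populations in the same direction. That of neutrophils was also lower in the FCGR4+ library of every mouse, with overlapping ranges (126 to 557 against 400 to 2478 CPM). The gate was negative for CD3 and Ly6G and positive for CD45. What part any of these cells had in the difference of *Alox5* was not tested. No exon of another gene overlaps it, and 0% of its 50-base words occur in other genes.

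*Alox5ap* (chr5:149264767-149288153, plus strand) encodes FLAP, which presents arachidonic acid to 5-lipoxygenase. It was measured at 209, 281, 370 and 307 CPM in FCGR4+ libraries and 188, 240, 321 and 293 CPM in FCGR4- libraries of mice 1 to 4. The FCGR4+ library was higher in every mouse, but by less than the mice differed from each other, and the ranges overlapped (log2 fold change 0.16 ± 0.12 SE, adjusted P = 0.660). Per kilobase, the ratio of *Alox5ap* to *Alox5* was 50, 31.8, 62.4 and 102 in FCGR4+ and 17.4, 23.5, 32.7 and 30.5 in FCGR4- libraries. The FCGR4+ library had the higher ratio in each of 4 mice, and the medians were 56.2 and 27.0.

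The enzymes that divide leukotriene A4 between its products differed in how steady they were. *Lta4h* (chr10:93453411-93484875, plus strand), the hydrolase that yields leukotriene B4, was at 42.3, 53.7, 40.3 and 41.9 CPM in FCGR4+ and 48.4, 57.7, 41.9 and 47.4 CPM in FCGR4- libraries. Each mouse had the lower value in FCGR4+ cells, the ranges overlapped, and the log2 fold change was -0.13 ± 0.12 SE (adjusted P = 0.717). *Ltc4s* (chr11:50236461-50238616, minus strand), the synthase of leukotriene C4, was at 9.68, 51.7, 24.4 and 9.28 CPM in FCGR4+ and 2.29, 25.3, 18.4 and 9.54 CPM in FCGR4- libraries. Mouse 2 was highest in both populations, mice 1 to 3 were higher in FCGR4+ cells, and mouse 4 was nearly level (log2 fold change 0.85 ± 0.33 SE, adjusted P = 0.478). Mast cells also make LTC4S, and the summed mast cell markers were lower in the FCGR4+ library of every mouse. Their part in the level of *Ltc4s* was not tested. Without mouse 1 its log2 fold change was 0.47. Per kilobase, the ratio of *Lta4h* to *Ltc4s* ran from 0.173 to 3.50 and was lower in FCGR4+ cells in 4 of 4 mice, from 3.50 to 0.726 in mouse 1 and from 0.826 to 0.751 in mouse 4. Of the exon bases of *Ltc4s*, 26.4% are shared with the antisense gene *Gm26542*, and of those of *Alox5ap* 13.3% with *Gm19719*. Pairs falling there could not be assigned by a count without strand, and *Gm26542* and *Gm19719* themselves reached at most 0.436 and 0.645 CPM.

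*Alox15* (chr11:70344152-70352031, minus strand) was at 8.01, 3.58, 0 and 0.81 CPM in FCGR4+ libraries and 25.2, 14.5, 5.06 and 12.4 CPM in FCGR4- libraries. FCGR4+ was the lower library in each mouse, although mouse 1 FCGR4+ exceeded mouse 3 FCGR4-, so that the populations overlapped. The fitted log2 fold change was -3.16 ± 0.82 SE (adjusted P = 0.218). In mouse 3 there were 280 counts in the FCGR4- and 0 in the FCGR4+ library, which is at least 106-fold lower when 3 counts in that library are taken as the floor. Without mouse 3 the gene passed the threshold with a smaller fold change (-2.46, adjusted P = 0.0830), and mice 1 and 2 alone gave -1.83 (0.0607). It did not pass without mouse 1 (-3.91, adjusted P = 0.275), mouse 2 (-3.68, 0.316) or mouse 4 (-2.86, 0.564), nor in mice 3 and 4 alone (-5.29, 0.151). Within FCGR4- libraries the order of mice by *Alox15*, 1, 2, 4 and 3, was also their order by the mast cell and basophil sum (2242, 1253, 527 and 403 CPM). Within FCGR4+ libraries the orders differed, and mouse 3, with 0 counts of *Alox15*, had the highest of these sums (31.8 CPM). Whether mast cells or basophils had a part in the level of *Alox15* was not tested. In a gate negative for SiglecF, the eosinophil markers summed to 12.3 to 17.8 CPM in FCGR4+ and 12.9 to 39.8 CPM in FCGR4- libraries, with *Epx*, *Prg2* and *Ear6* under 3 counts in every FCGR4+ library and *Ccr3* the most abundant. Large peritoneal macrophages, which are known for *Alox15*, had a marker sum of 470 to 1590 and 270 to 1863 CPM, but most of it was *Fn1*, as in the FCGR4+ library of mouse 2 (1532 of 1590 CPM). None of the 9 markers passed the threshold, their median log2 fold change was 0.10, and the single markers differed in direction. *Gata6*, the factor that defines these cells, had -1.49 and was lower in 3 of 4 mice, and *Selp* (-1.29), *Fn1* (-0.55) and *Garnl3* (-0.09) were also negative. *Prg4* had 0.70 and was higher in 3 of 4 mice, and *Itga6* (0.54), *Timd4* (0.27), *Icam2* (0.23) and *Cxcl13* (0.10) were also positive. The part of eosinophils or of large peritoneal macrophages in the difference of *Alox15* was not tested.

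**Figure D3:**
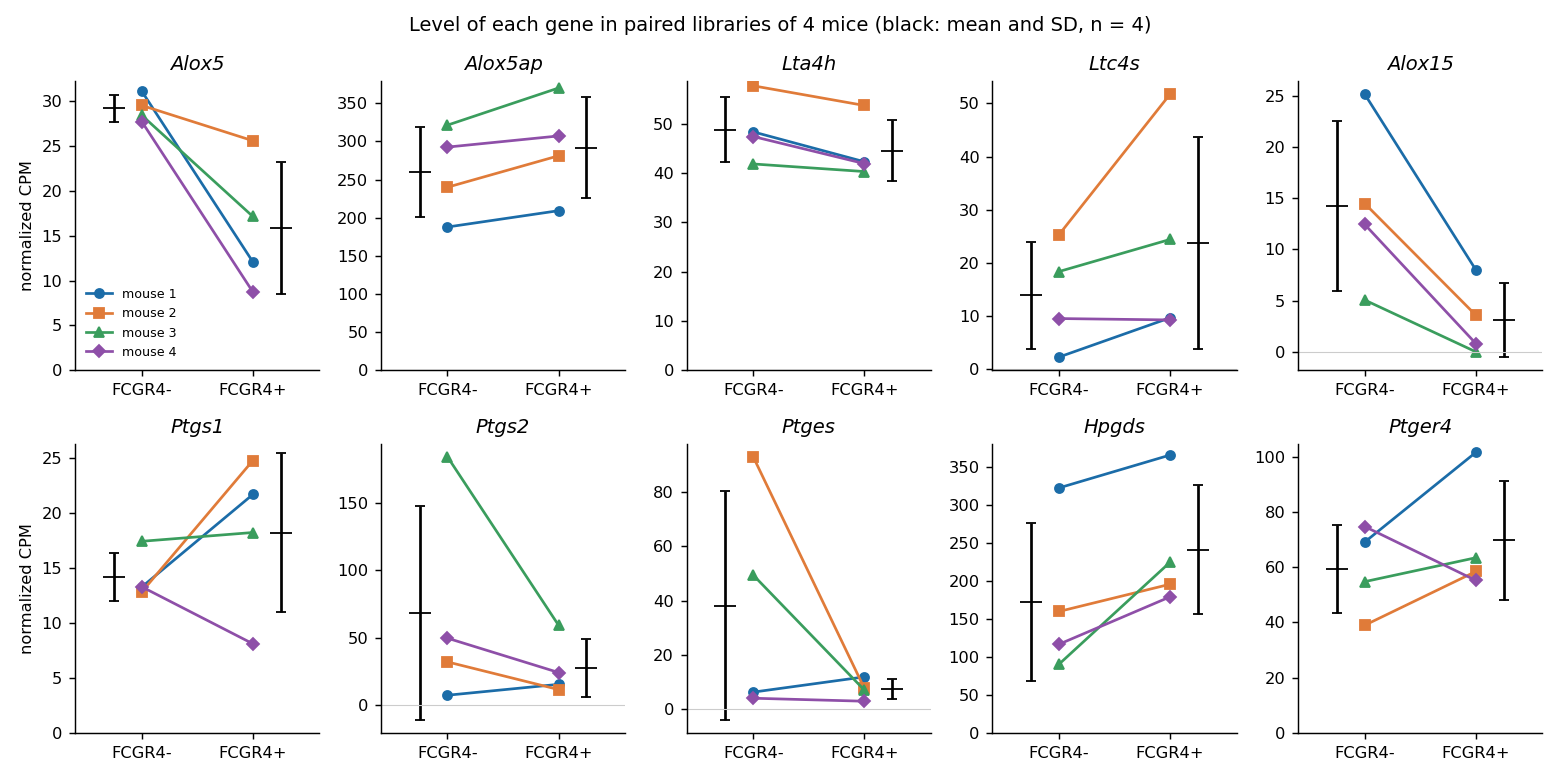
Normalized CPM of each of the 10 genes in the FCGR4- and FCGR4+ libraries, 1 line per mouse, with the mean and SD of 4 libraries in black beside each population. From left to right, lines of *Alox5* and *Alox15* slope down and those of *Hpgds* and *Alox5ap* up in every mouse, and the high FCGR4- values of *Ptgs2* (184 CPM, mouse 3) and *Ptges* (92.9 CPM, mouse 2) come from different mice.

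Neither cyclooxygenase passed the threshold between the populations. *Ptgs1* (chr2:36230426-36252272, plus strand) was at 21.7, 24.8, 18.2 and 8.11 CPM in FCGR4+ and 13.3, 12.8, 17.4 and 13.3 CPM in FCGR4- libraries. FCGR4+ was higher in mice 1 to 3 and lower in mouse 4 (log2 fold change 0.26 ± 0.28 SE, adjusted P = 0.758). The fold change was 0.10 without mouse 1, 0.06 without mouse 2 and 0.57 without mouse 4. *Ptgs2* (chr1:150100031-150108227, plus strand) was at 15.3, 11.4, 59.2 and 24.1 CPM in FCGR4+ and 7.23, 32.0, 184 and 49.6 CPM in FCGR4- libraries. Mouse 3 was highest in both populations, and FCGR4+ was lower in mice 2, 3 and 4 and higher in mouse 1 (log2 fold change -0.83 ± 0.44 SE, adjusted P = 0.579). Without mouse 1 the gene passed the threshold, at -1.39 (adjusted P = 0.0645), whereas without mouse 2 or mouse 3 the fold change was -0.55 and -0.53. The neutrophil markers, summed, in a gate negative for Ly6G, were also highest in mouse 3 in both populations, at 557 CPM in FCGR4+ and 2478 CPM in FCGR4- cells, and the immediate early genes, which rise when tissue is handled, were highest in its FCGR4- library (11720 CPM) but not in its FCGR4+ library (8718 CPM, below mice 1 and 2 at 10790 and 9906 CPM). Their part in the level of *Ptgs2* was not tested. Per kilobase, *Ptgs1* exceeded *Ptgs2* in 3 of 8 libraries, both populations of mouse 1 and the FCGR4+ cells of mouse 2, and the ratio ran from 0.112 to 2.56.

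The terminal prostaglandin synthases differed in opposite directions in the fit, neither past the threshold, although in mouse 1 both were higher in FCGR4+ cells. *Hpgds* (chr6:65117293-65144908, minus strand), the hematopoietic prostaglandin D synthase, was at 366, 196, 225 and 179 CPM in FCGR4+ and 323, 160, 90.5 and 117 CPM in FCGR4- libraries. Mouse 1 was highest in both, the ranges overlapped, and the FCGR4+ library was higher in 4 of 4 mice, most in mouse 3 (log2 fold change 0.60 ± 0.21 SE, adjusted P = 0.388). Mast cells also carry this enzyme, and their summed markers were 15.2 to 31.8 CPM in FCGR4+ against 403 to 2242 CPM in FCGR4- libraries. The macrophage marker sum, given above, was higher in the FCGR4+ library of every mouse, as was *Hpgds*. Most of that sum was *Lyz2* (17470 of 29520 CPM and 39810 of 52580 CPM in the FCGR4+ libraries of mice 1 and 2). *Lyz2* had a log2 fold change of 0.12. Of the other macrophage markers, *Csf1r* (-0.21) and *Cd14* (-0.42) were negative in the fit and the rest positive. The part of either cell type in the level of *Hpgds* was not tested. Without mouse 3 its log2 fold change was 0.35. *Ptges* (chr2:30889471-30929863, minus strand), the inducible prostaglandin E synthase, was at 11.9, 7.72, 7.04 and 2.93 CPM in FCGR4+ and 6.28, 92.9, 49.4 and 4.03 CPM in FCGR4- libraries. The FCGR4- libraries of mice 2 and 3 stood far above the other 6, while mice 1 and 4 had low values in both populations (log2 fold change -1.54 ± 0.79 SE, adjusted P = 0.565). The fold change was -0.72 without mouse 2, -0.97 without mouse 3 and -2.38 without mouse 1. *Hpgds* exceeded *Ptges* per kilobase in 8 of 8 libraries, by 15.5 to 37.5 times in FCGR4+ cells, by 31.5 and 17.7 times in the FCGR4- cells of mice 1 and 4, and by 1.05 and 1.12 times in those of mice 2 and 3.

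*Ptger4* (chr15:5206661-5244187, minus strand) encodes EP4, the receptor through which prostaglandin E2 raises cyclic AMP in macrophages. Its level was 102, 58.4, 63.4 and 55.2 CPM in FCGR4+ and 69.1, 39, 54.7 and 74.7 CPM in FCGR4- libraries. FCGR4+ was higher in mice 1 to 3 and lower in mouse 4 (log2 fold change 0.23 ± 0.20 SE, adjusted P = 0.695). The fold change was 0.12 without mouse 1, 0.14 without mouse 2 and 0.45 without mouse 4. Of its exon bases, 16.5% overlap *Ttc33* and *Gm15937* on the other strand. *Ttc33* was at 14.3 to 29.2 CPM.

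Across the pathway, 67 genes in 8 lists by role were examined, of which 48 had enough counts to be tested. None rose and 2 fell in FCGR4+ cells, *Ptger3* and *Dpep1*, where 1.19% of all tested genes fell. At an unadjusted P value under 0.05 there were 11 of 48, beside 9.77% of all tested genes, and 24 were higher and 24 lower in the fit (median log2 fold change 0.00). By list, 7 of 11 tested genes of prostanoid synthesis (12 listed) were higher, with a median of 0.26, and 7 of 12 of leukotriene synthesis (13 listed) were lower, with a median of -0.19, *Dpep1* among them. Of 9 prostanoid receptors 5 were tested, and *Ptger3* was the 1 past the threshold. For arachidonate release, 6 of 8 genes were tested and none passed, with *Pla2g15* (228 ± 56.9 SD and 170 ± 41.7 CPM in FCGR4+ and FCGR4-, n = 4 each) and the cytosolic phospholipase *Pla2g4a* (31.9 ± 6.27 and 30.6 ± 13.5 CPM) at the top per kilobase. In the list of prostanoid synthesis, the highest RNA levels per kilobase were of *Ptges3* (219 ± 64.4 and 178 ± 27.0 CPM) and *Prxl2b*, a prostamide and prostaglandin F synthase (42.0 ± 19.5 and 29.8 ± 7.96 CPM). Neither passed the threshold, and a high RNA level does not show a large part in synthesis. For breakdown and transport, 0 of 4 tested (5 listed) passed, led per kilobase by *Hpgd*, which inactivates prostaglandins (90.3 ± 40.2 and 84.4 ± 53.0 CPM), and *Ptgr1* (23.9 ± 2.58 and 30.7 ± 11.5 CPM). Leukotriene receptors had 0 of 3 tested (6 listed) past the threshold, with *Ltb4r1*, the high-affinity leukotriene B4 receptor, at 26.3 ± 21.6 and 44.0 ± 35.4 CPM and lower in 4 of 4 mice (adjusted P = 0.225), and *Cysltr1* at 71.2 ± 25.4 and 48.5 ± 15.1 CPM. The mice differed widely in *Ltb4r1*. In mice 1 to 4 it was at 7.49, 7.97, 41.4 and 48.2 CPM in FCGR4+ and 8.96, 19.0, 81.7 and 66.3 CPM in FCGR4- libraries. The remaining lists, other lipoxygenases with epoxide hydrolases (3 of 8 tested) and receptors of lipoxins and resolvins (4 of 6 tested), held no gene past the threshold. Per kilobase, *Ephx1* led the first, at 45.4 ± 12.6 and 44.7 ± 23.0 CPM, ahead of *Alox15*. Highest in the second were *Fpr1*, a formyl peptide receptor placed in that list (10.9 ± 2.52 and 27.6 ± 27.5 CPM), and *Fpr2* (15.5 ± 9.27 and 14.6 ± 11.1 CPM). *Fpr1* came first through its FCGR4- libraries (mean 20.8 CPM per kilobase). By the mean of FCGR4+ libraries *Fpr2* (11.9 CPM per kilobase) lay above *Fpr1* (8.25).

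**Figure D4:**
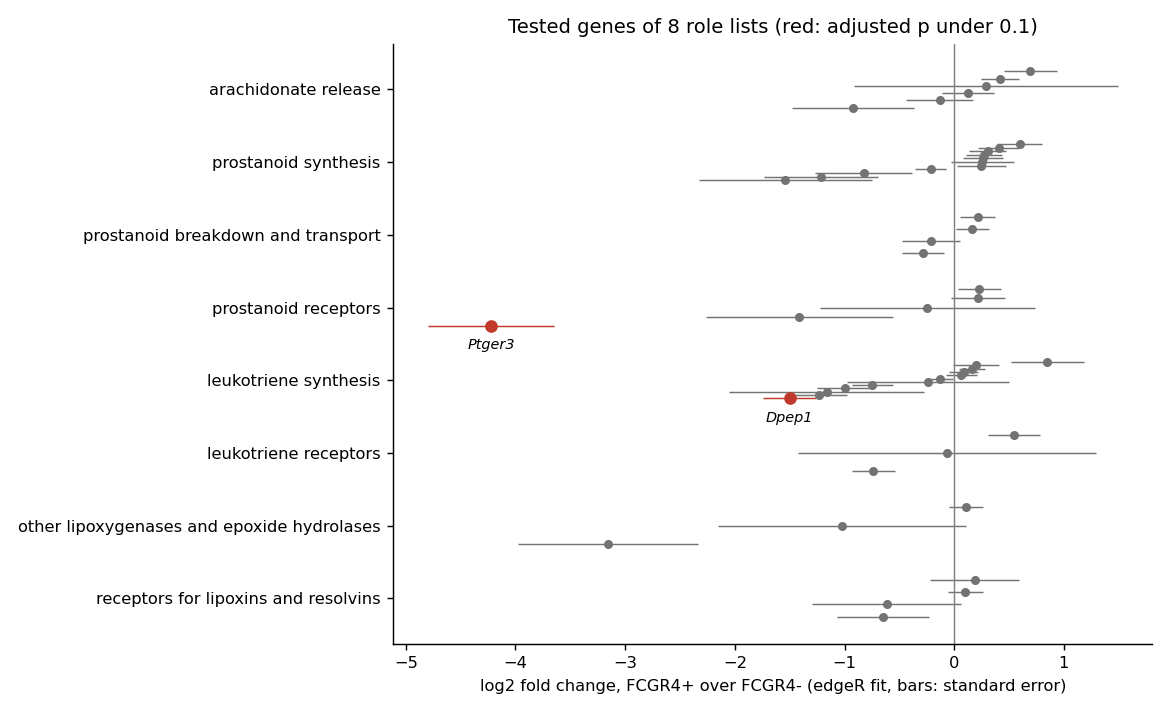
Fitted log2 fold change (FCGR4+ over FCGR4-, bars give the standard error) of the 48 tested genes in 8 role lists. *Ptger3* at -4.22 and *Dpep1* at -1.50 are the 2 genes past the threshold (red), and 24 genes lie above and 24 below 0.

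*Ptger3*, which encodes the EP3 receptor that lowers cyclic AMP, stood at 0.32, 0.21, 0.080 and 0.021 CPM in FCGR4+ and 4.69, 1.68, 2.98 and 1.05 CPM in FCGR4- libraries. The populations did not overlap, but the FCGR4+ libraries held 19, 10, 5 and 1 counts, the last under the floor of 3 counts (log2 fold change -4.22 ± 0.58 SE, adjusted P = 0.0396). It lost the threshold without mouse 1 (adjusted P = 0.157), in mice 3 and 4 alone (0.130) and with no replicate block (0.127), and its fold change lay between -5.34 and -3.47 in the 13 alternatives that tested it. *Dpep1*, a membrane dipeptidase that turns leukotriene D4 into leukotriene E4, was at 7.01, 7.34, 9.98 and 11.7 CPM against 32.0, 13.8, 33.8 and 25.8 CPM. All FCGR4+ libraries were below all FCGR4- libraries (log2 fold change -1.50 ± 0.24 SE, adjusted P = 0.0605), but leaving out any mouse ended the call, with adjusted P values between 0.107 and 0.157 and log2 fold changes between -1.66 and -1.27. Mast cell and fibroblast marker sums, 403 to 2242 and 394.9 to 1601 CPM in FCGR4- against 15.2 to 31.8 and 155 to 298 CPM in FCGR4+ libraries, separated the populations the same way (the gate was positive for CD45, which fibroblasts lack), and their part in both differences was not tested.

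Over the 8 libraries, which share mice and populations, the following Pearson r of log2 CPM are descriptions without a test. *Alox5ap* and *Ptgs2* had r = 0.717, *Alox5* and *Lta4h* 0.6, and *Hpgds* and *Ptger4* 0.515, whereas *Ptgs2* and *Hpgds* had -0.792 and *Alox5ap* and *Alox15* -0.755. Among 13498 other genes, those most like *Alox5* were *Cd3g* (0.956), *Gpx3* (0.954) and *Skap1* (0.953), of which *Cd3g* encodes a chain of the T cell receptor complex. For *Alox5ap* they were *Cmklr1* (0.984), *H2-T22* and *Ube2l3*, and for *Lta4h* *Pisd-ps1* (0.965), *Zfp276* and *Pisd-ps2*. *Ltc4s* was followed by *H2-T-ps* (0.969), *Rasgrp2* and *H2-K1*, and *Alox15* by *Nol10* (0.986), *Atp13a1* and *Gtf3c4*. *Ptgs1* varied most like *Ascc1* (0.958), *Nsmce3* and the fractalkine receptor *Cx3cr1* (0.941). *Chd7* (0.989), *Abhd11* and *Nfkbib* were nearest to *Ptgs2*, and *Zfp971* (0.955), *Thbd* and *Prkar2b* to *Ptges*. *Armc1* (0.984), *Ate1* and *Zfp318* were nearest to *Hpgds*, and *Pik3r1*, *Wasf2* (both 0.953) and *Dock8* to *Ptger4*.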

How the data were processed

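The authors mapped read pairs of 8 libraries to mm10 with STAR and counted them on the genes of GENCODE vM18 with featureCounts 1.6.3. For their own comparison the authors used DESeq2 with a paired model of mouse and population. The deposited file holds the counts, not normalized. Strand was not used, a pair with several alignments counted once per alignment, and pairs on exons of more than 1 gene were not assigned. The libraries were paired by the mouse number in the labels. Within a mouse, deviations from the population means correlated at 0.291 to 0.428, against a median of -0.06 between mice. No library was a duplicate of another of its population (chi-square per degree of freedom at least 76.2).

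The 17095 genes that reached 10 counts in 4 or more libraries were normalized by TMM. Populations were compared by the quasi-likelihood test of edgeR 4.0.16 (R 4.3.3), the mouse entering as a block. P values were adjusted after Benjamini-Hochberg over all tested genes, and the threshold was 0.1. SE were obtained by dividing each log2 fold change by the root of its F statistic. CPM per kilobase used the deposited gene length. Ratios within a mouse used log2 CPM with a prior count of 2. The fits were also run on simulated counts, the outcome of which is not reported here. Coordinates are from the deposited annotation. Promoter sequences are from RefSeq, where 8 of 10 genes were matched (not *Alox15* and *Alox5ap*).

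The genes and lists were chosen with earlier results of these data known. Named in the text are the 10 genes, *Fcgr4*, genes of the role lists past the threshold and otherwise the 2 of each list highest per kilobase, the 3 genes most like each of the 10 (Pearson r, mean of at least 1 CPM), and the most abundant gene of a marker list. Alternatives were DESeq2 1.42.0, other filters on low counts, scaling by RLE or by library size only, edgeR's newer method, no replicate block, a threshold of 0.05, leaving out each mouse, and the mice of each animal ID prefix alone (1 and 2, 3 and 4).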

Additional observations from a re-analysis of the deposited data

Results flagged for a closer look

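Among 39 sets of 4 values of 1 population examined, 2 held a library whose gap to the nearest other, divided by the whole range, exceeded Dixon's critical value, and chance gives about 1 in 20, here 1.95. *Lta4h* in FCGR4+ cells was one (0.852), with mouse 2 at 53.7 CPM and the others at 40.3 to 42.3 CPM. *Ptgs1* in FCGR4- cells was the other (0.898), with mouse 3 at 17.4 CPM and the others at 12.8 to 13.3 CPM.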

How the results depend on the processing

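Of 139 fold changes of the 10 genes under the alternatives, 137 kept their direction and 124 also their side of the threshold. Another 13 passed it, and 2 reversed, both in mice 3 and 4 alone: *Ptgs1* to -0.34 (adjusted P = 0.535) and *Ptger4* to -0.13 (0.765). The number of all genes past the threshold, 217, became 1054 with no filter on low counts, 1024 with DESeq2, 629 with the newer quasi-likelihood method, 115 in mice 1 and 2 alone, 72 in mice 3 and 4 alone, 76 at a threshold of 0.05, and 78 to 162 leaving out each mouse. With no replicate block, which ignores the pairing by mouse, it was 48, and the numbers among the 10 genes and the 67 pathway genes were both 0. Among the 10 genes the number, 0, became 6 with no filter, 2 with DESeq2, 2 with the newer method, 1 in mice 1 and 2 alone, and 0 to 1 leaving out each mouse (*Ptgs2* without mouse 1, *Alox15* without mouse 3). Among the 67, it changed from 2 to 14 with no filter, 7 with DESeq2, 6 with the newer method, 0 in mice 3 and 4 alone, 1 at a threshold of 0.05, and 1 to 2 leaving out each mouse. The causes were not tested. *Alox15* and *Ptger3* were not tested under the filter of 10 counts in every library. Fits for *Ptger3* and *Dpep1* under the alternatives were added after seeing the data. Values under 3 counts, worth 0.0440 to 0.0883 CPM by library, were not separable from 0, and counts were not tested for molecules copied during amplification.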
